A study of Macaca mulatta with 64 samples.

Results

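SNCB encodes beta-synuclein, a small protein of presynaptic terminals. All rows of the gene (ENSMMUG00000000137) in the deposited table of transcription start positions were taken, which gave 97 of 160389 positions and 1 of 13269 genes. The gene was chosen by these same values, because 1 of its positions was listed with a value above 0 in all 64 libraries. That listing is a description and was not tested. The method was CAGE-seq, which is meant to map the bases at which the capped 5′ ends of polyadenylated RNA lie. The tissue was rhesus macaque (Macaca mulatta) brain from 8 regions. The 5 neocortical ones were the prefrontal (PFC), parietal (PC), occipital (OC), posterior cingulate (PCC) and temporal cortex. The hippocampus gave the field CA1 and the dentate gyrus (DG), and the cerebellum gave its cortex (CB). Each region gave 1 library of females and 1 of males at 1, 4, 10 and 20 yr. The labels describe 16 healthy, socially housed animals, with 2 of each sex at each age, and no group received a treatment before euthanasia with pentobarbital. The methods give 1 RNA-seq library for each pair matched in age and sex and state that the same samples were used for CAGE-seq, so a library stands for a pair of animals. The 8 libraries of 1 age and sex are called an animal group here, because every region was sampled in each animal. Each region was thus sequenced once per age and sex, and every error below rests on a spread between libraries that differ in age or sex. This spread cannot be split into differences between animals and technical ones. The SEs of fits across all genes also draw on the spread of the other genes.

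Synucleins are unfolded in solution and bind the curved membranes of synaptic vesicles. Gamma-synuclein (SNCG) is best known from peripheral and motor neurons. SNCB is expressed by many neuron types of the neocortex, hippocampus and cerebellum.

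The values are tags scaled to a common library total, called TPM here. A tag is read from a 5′ end whatever the length of the transcript, so levels of different genes were set side by side without a length correction. Libraries listed between 644 positions (CB, 10-yr-old females) and 23670 positions (CA1, 20-yr-old females). The size of 1 tag ranged from 0.164 to 0.663 TPM, and between 2 and 7 tags stood behind the lowest value a library listed. SNCB was covered by 2170 to 64031 tags in each library, with a median of 20716. Counting error is small at this depth, though the tags carry no molecular identifiers and duplicates of 1 molecule could not be recognised. The region labels were checked against marker genes. CBLN1 and CBLN3, which granule cells of the cerebellum secrete, reached 750 ± 408 and 614 ± 268 TPM (SD, n = 8) in CB, and were listed in only 2 and 1 of the other 56 libraries. They were the clearest of 10 markers of cerebellar granule and Purkinje cells, of which 9 were listed and 6 tested. Of the 6, 4 were higher in CB (adjusted p under 0.05, limma), against 0.884% of all genes tested, and the others were not called. Genes needed at least 1 TPM in 8 libraries to be tested. CBLN1 and CBLN3 met this only through CB, so their calls were close to fixed in advance. The 4 dentate granule cell markers did not set DG apart, with a summed 127 ± 131 TPM in DG, 262 ± 486 in PCC and 251 ± 296 in CB, and PROX1 was at 0 in every DG library.

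In the coordinates of the table (Ensembl MMUL 1.0), SNCB spans chromosome 6 from 173107195 to 173135126 on the minus strand, 27932 nt in all. Exons and introns were not analysed here. None of the 97 positions lay within 500 nt of the annotated start. The nearest was 17557 nt inside the gene, so the first 62.9% of the annotated span was empty. The position listed in all libraries, called the main position here, was at 173113369, which is 21757 nt inside the span. It held 86.1% of all SNCB TPM. Its nearest listed neighbours were 25 nt upstream and 37 nt downstream, so no other position could be joined to it under a distance of 20 nt.

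The positions fell into 3 stretches separated by gaps of at least 1000 nt, a division made after the positions were seen. The upstream stretch held 35 positions over 1039 nt, 17557 to 18595 nt inside the gene. It was listed in all 64 libraries with 519 ± 536 TPM (SD, n = 64) and held 8.66% of SNCB TPM. Its leading position, 173117398, was listed in 44 libraries and lay 4029 nt upstream of the main position. The middle stretch held the main position and 18 further positions that together added little: its share was 86.6%, against 86.1% for the main position alone. The end stretch held 43 positions, 248 to 1088 nt before the annotated gene end, and 4.71% of the TPM. It was listed in 59 libraries with 282 ± 265 TPM. Its 4 most widely listed positions, 173107676, 173107794, 173107728 and 173107606, were found in 33, 32, 31 and 29 libraries. Whether the RNA that began there carried a cap was not tested.

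**Figure D1:**
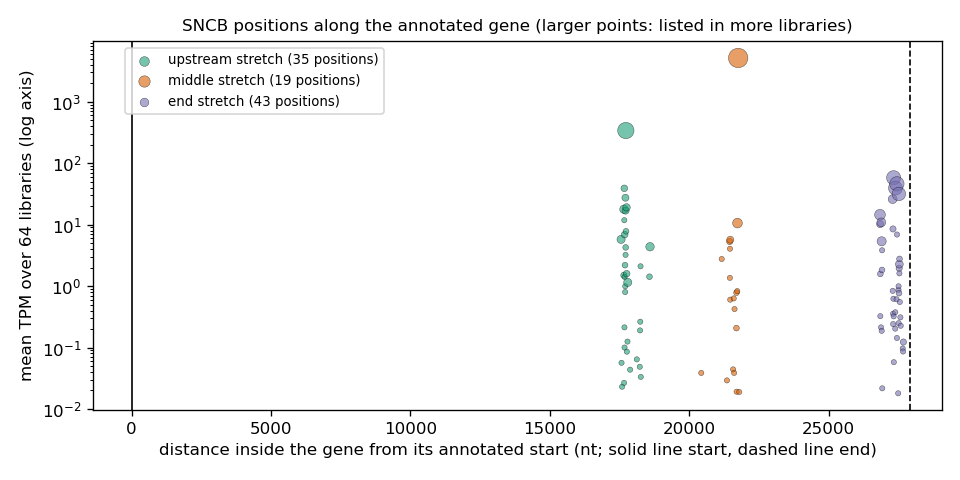
Mean TPM over 64 libraries (log axis) of each of the 97 SNCB positions against its distance in nt from the annotated start, with larger points for positions listed in more libraries and colours for the 3 stretches. The 1 point above 1000 TPM is the main position, 21757 nt inside the gene, and no point lies in the first 17557 nt.

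Most SNCB positions were listed in few libraries. Of the 97, 58 were listed in 1 library, 24 in 2 to 7 and 15 in at least 8. The authors clustered starts sample by sample, so 1 cluster may be listed at different bases in different libraries. The neighbouring bases 173117454 and 173117453, for example, were listed in 1 and 4 libraries. Counts of libraries per position are therefore counts of exact bases. A library listed 3 to 13 of them, with a median of 7. By number of positions SNCB was 91st of the 13269 genes, and by mean TPM it was 11th. Across libraries its rank by TPM ran from 2 (CB, 1-yr-old males) to 132 (CA1, 1-yr-old males), with a median of 13. SNCB took 1.07% of all listed TPM. The table held 5 positions listed in all 64 libraries and 5 more listed in 63, the values on either side of the rule. Of the 5 in all libraries, 1 was in RBM42, an RNA-binding protein gene, with 3971 ± 2685 TPM, against 5157 ± 3955 TPM at the SNCB main position (SD, n = 64). The other 3 were in genes without a symbol, with means of 7289, 3016 and 1854 TPM.

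The annotated span of SNCB also contains ENSMMUG00000000142, a gene without a symbol on the opposite strand at 173131163 to 173133888. It had 16 positions in 18 libraries and 11.2 ± 28 TPM (SD, n = 64). The nearest gene past the annotated start was TSPAN17, a tetraspanin gene on the plus strand that begins 294 nt away, with 4.33 ± 15.2 TPM. On the other side GPRIN1, a neurite outgrowth gene on the minus strand, lay 20807 nt away and had 20.6 ± 52.4 TPM. All 3 were listed far less often than SNCB, in 18, 10 and 22 libraries.

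The regions differed widely in SNCB. The gene summed over its positions was highest in CB, with 12217 ± 5719 TPM, and lowest in CA1, with 808 ± 164 TPM (SD, n = 8 libraries each). In the fit across all genes (limma on log2(TPM + 1), with region and animal group as terms), SNCB differed over the 8 regions with F = 14.4 and an adjusted p of 6.33e-08. At this threshold, an adjusted p under 0.05, 26.0% of the 6106 genes tested differed over the regions. A bulk library cannot tell fewer cells of a type from less RNA in each cell.

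By library, CB ranged from 3794 to 19925 TPM with a median of 11965, and it had the widest absolute spread. OC ranged from 7176 to 10840 TPM with a median of 8951, the narrowest span for its level, at 1.51-fold between the extremes. These regions overlapped, since 2 CB libraries, at 3794 and 6911 TPM, lay below all 8 of OC. PCC ranged from 2766 to 13713 TPM (median 5888), and DG from 3421 to 7993 TPM (median 5670). PFC ranged from 1570 to 7305 TPM (median 5004), and its lowest library was set apart from the next at 4626. The temporal cortex ranged from 2784 to 7748 TPM (median 3678), and PC from 1978 to 9821 TPM (median 3243). All these groups overlapped with each other. CA1 ranged from 492 to 1025 TPM with a median of 850, and no CA1 library reached the lowest of the other 56, at 1570 TPM.

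**Figure D2:**
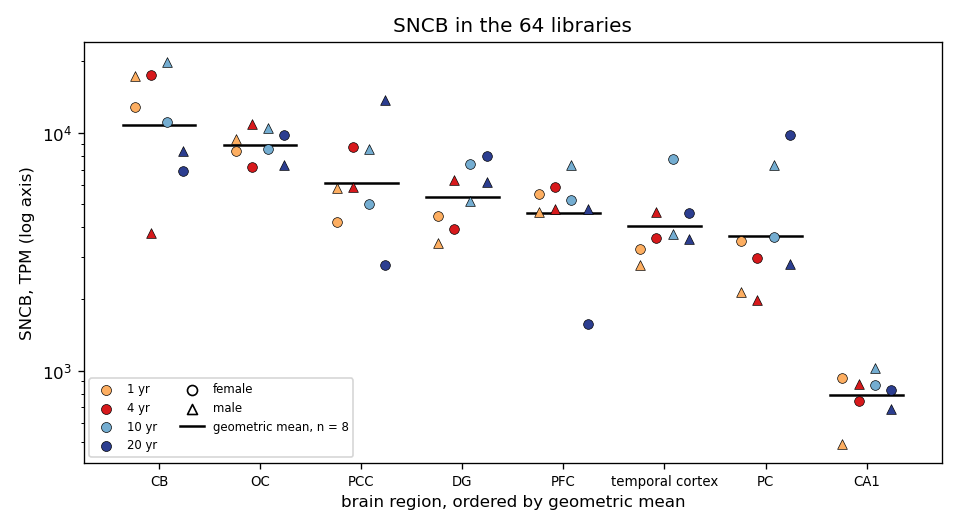
SNCB in TPM (log axis) in each of the 64 libraries by region, with colour for age, shape for sex and a line at the geometric mean of the 8 libraries. The CA1 libraries sit between 492 and 1025 TPM, below all others, and CB spreads from 3794 to 19925 TPM.

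Ordered by geometric mean, the regions were CB (10825 TPM), OC (8884), PCC (6155), DG (5391), PFC (4615), temporal cortex (4050), PC (3662) and CA1 (791). The 28 pairs of regions were compared over the 8 animal groups with an exact two-sided sign-flip test, which can give no p below 0.00781, and 15 pairs passed after adjustment over the 28. CA1 was in 7 of the 15. The 95% intervals of the pairs are t intervals of the paired log2 differences, without adjustment. An interval can thus exclude equality where the adjusted p does not pass. Of the 7 pairs of neighbours in the order, only PC and CA1 passed (4.63-fold, 95% interval 3.07 to 6.98, adjusted p = 0.0219, exact sign-flip test). CB and OC, at the top of the order, differed by 1.22-fold with an interval of 0.721 to 2.06 (adjusted p = 0.485, exact sign-flip test). OC exceeded DG in 8 of 8 animal groups, by 1.65-fold (1.27 to 2.13, adjusted p = 0.0219, exact sign-flip test). OC also exceeded PFC (1.93-fold) and the temporal cortex (2.19-fold) in 8 of 8, and PC (2.43-fold) in 7 of 8, all past the threshold. DG exceeded the temporal cortex by 1.33-fold (1.12 to 1.58) in 7 of 8 (adjusted p = 0.0292, exact sign-flip test). Within the neocortex OC passed against 3 of the other 4 regions, and no pair among PFC, PCC, temporal cortex and PC passed.

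CA1 fell far below the neighbouring hippocampal field. In CA1, SNCB was 6.81-fold lower than in DG, a log2 difference of -2.77 ± 0.43 (SE) with an adjusted p of 8.73e-06 by limma. It was lower in 8 of 8 animal groups, by -3.27 to -2.26 on the log2 scale. The same call in the same direction was made for 0.852% of the 6106 genes, and a call in either direction for 19.4%. The hippocampus as a whole (mean of CA1 and DG) was below the neocortex by -1.33 ± 0.25 on the log2 scale (adjusted p = 0.000471, limma), in 8 of 8 animal groups. That call was made for 0.213% of genes, the opposite one for 7.98% and either for 8.19%. DG alone did not differ detectably from the mean of the 5 neocortical regions, with a log2 difference of 0.06, a 95% interval of -0.32 to 0.44 and p = 0.742 (exact sign-flip test). CA1 was below each of the 5 neocortical regions in 8 of 8 animal groups.

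The direction of SNCB was against that of most genes tested, a set filled more by CA1 than by DG. Of the 6106 genes, 6063 varied between the CA1 libraries and 4956 between those of DG. A gene could pass the filter of 8 libraries through CA1 alone. The median gene was 1.37 higher in CA1 than in DG on the log2 scale, and 18.5% of genes were called higher there. CA1 libraries also listed more positions, 12036 ± 5290 (SD, n = 8), against means of 1789 to 5153 in the other regions. An alternative added after the data were seen had the log2 number of positions as a further term. In it SNCB was lower in CA1 than in DG by -2.70 ± 0.53 (adjusted p = 0.00138, limma). Region was a term too, so the slope for positions came from differences within regions. The fit therefore cannot separate CA1 from its many positions. Quantile normalization brought the median gene from 1.37 to 0.12 and SNCB to -2.57. Over the 54 genes listed in all 64 libraries, the median difference between CA1 and DG was -0.60, and 37 of the 54 were below 0, the direction of SNCB. SNCB was lower than 50 of them, and 3 were lower still.

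Some myelin markers differed between CA1 and DG too. The 5 listed oligodendrocyte and myelin markers summed to 4978 to 8185 TPM in the CA1 libraries and to 736 to 4047 TPM in DG. MBP, the myelin basic protein gene, made up most of this, with 6445 ± 1189 TPM in CA1 and 2548 ± 1032 TPM in DG. It was not called (1.46 on the log2 scale, adjusted p = 0.0662, limma). Of the 4 tested markers, 2 were called higher in CA1 than in DG, against 18.5% of all genes. MOBP, another myelin protein gene, rose from 3.82 ± 5.83 in DG to 103 ± 68.5 TPM in CA1 (adjusted p = 9.75e-06, limma). MOG was also called on the log2 scale (adjusted p = 0.0476, limma). Its mean was nevertheless lower in CA1 (45.9 ± 26.5 TPM) than in DG (75.5 ± 150 TPM), where 3 of 8 libraries listed it. The 8 neuron markers summed to 570 to 1086 TPM in CA1 and 390 to 1529 TPM in DG, ranges that overlap. The 8 listed astrocyte markers summed to 412 to 1275 TPM in CA1 and 670 to 1784 TPM in DG, which overlap too. The part of these markers in the SNCB result was not tested.

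CB was above the mean of the other regions, and above 4 of the 7 one by one. SNCB in CB was 2.72-fold higher than the mean of the other 7 on the log2 scale, a difference of 1.44 ± 0.32 (SE) with an adjusted p of 0.00463 by limma. It was higher in 7 of 8 animal groups, with 4-yr-old males as the exception at -0.07. That library had 3794 TPM, against 6911 to 19925 TPM in the other 7. The call in this direction was made for 0.884% of genes, the opposite one for 1.34% and either for 2.23%. With a pseudocount of 0.25 TPM in place of 1 the adjusted p was 0.0548. By pairs, CB exceeded PFC (2.35-fold), temporal cortex (2.67-fold), PC (2.96-fold) and CA1 (13.7-fold) past the threshold. It did not pass against OC (1.22-fold, interval 0.721 to 2.06, adjusted p = 0.485, exact sign-flip test). Nor did it against PCC (1.76-fold, interval 1.02 to 3.04) or DG (2.01-fold, 1.03 to 3.92), both with adjusted p = 0.103 (exact sign-flip test). These t intervals, unlike the p, are not adjusted over the pairs.

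Across all 64 libraries SNCB was lower where more positions were listed (Pearson r = -0.52, Spearman coefficient = -0.444, adjusted permutation p = 0.00016 and 0.0008 over 8 relations). Without the libraries farthest from the median, CB of 10-yr-old females and CA1 of 20-yr-old females, r was -0.464. With region means subtracted the relation was gone (r = -0.0888, Spearman coefficient = -0.0217, adjusted permutation p = 0.775 and 0.865).

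The main position held a smaller part of SNCB in CA1 than elsewhere. The main position had 4892 ± 1704 TPM in DG and 462 ± 152 TPM in CA1, while the upstream stretch had 381 ± 329 and 261 ± 84.3 TPM (SD, n = 8). In CA1 the upstream stretch ranged from 114 to 355 TPM, within the 31.2 to 1078 TPM of DG. The main position, at 132 to 664 TPM in CA1, lay below all 8 DG libraries, which began at 2807 TPM. The ratio of main position to upstream stretch had a median of 1.6 in CA1 and of 6.13 to 61.6 in the other regions. The end stretch was also lower in CA1, at 31.9 to 148 TPM, than the 125 to 445 TPM of DG, with a small overlap.

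**Figure D3:**
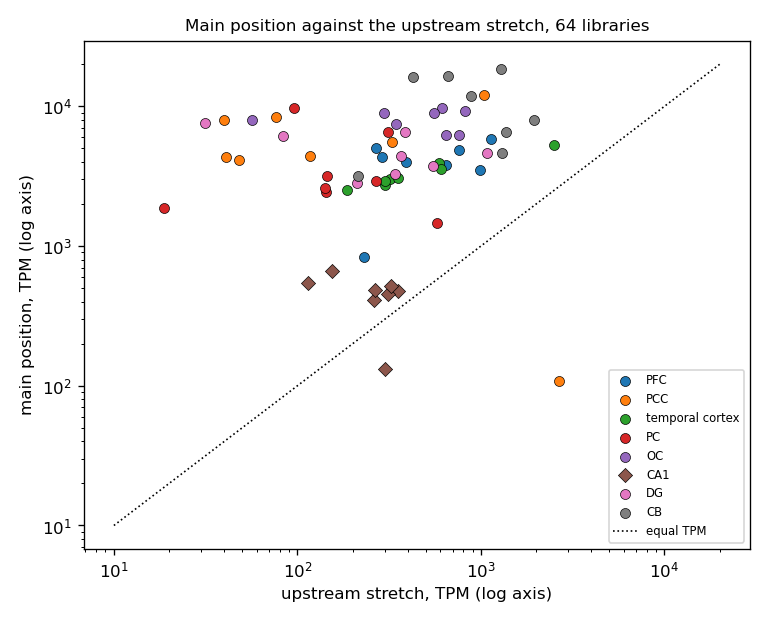
TPM at the SNCB main position against TPM summed over the upstream stretch (both log axes) in the 64 libraries, coloured by region, with a dotted line where they are equal. The CA1 libraries lie low but not to the left, and 2 libraries fall below the line: CA1 of 1-yr-old males and PCC of 20-yr-old females.

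The share of SNCB TPM at the main position put this on a scale that does not depend on library scaling. It was 56.2% ± 16.3 in CA1 and between 78.8% ± 11.7 (PFC) and 90.2% ± 3.93 (OC) in the other regions (SD, n = 8). The share ranged from 26.9% to 78.9% in CA1, from 74.8% to 96.4% in DG and from 85.7% to 96% in OC, so that CA1 and OC did not overlap. It differed over the 8 regions (F = 4.26, adjusted p = 0.00558, permutation within animal groups, 100000 resamples). This call was lost narrowly when the animal group of 1-yr-old or of 4-yr-old males was left out, with an adjusted p of at most 0.0506. No difference between CB and the other regions was detected (4.29 percentage points higher, adjusted p = 0.516, exact sign-flip test). The hippocampus was 12.2 percentage points below the neocortex, in 7 of 8 animal groups, but this did not pass (adjusted p = 0.117, exact sign-flip test).

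The exception among the animal groups was that of 20-yr-old females. In its PCC library the main position had 108 TPM, or 409 tags, and the upstream stretch 2659 TPM, so that the main position held 3.89% of SNCB. In the other 7 PCC libraries it held 75% to 98.7%. The PFC library of the same animal group had the lowest PFC total, 1570 TPM, and a main-position share of 53.1%, against 73.2% to 91.9% in the other 7. The remaining 6 libraries of these females had shares of 58.4% (CA1) to 98.7% (PC), and that of CB, at 67.1%, was the lowest of its region. Leaving this group out raised the region F of the share to 9.57.

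Age did not change SNCB detectably. Averaged over regions on the log scale, the youngest animals (1 yr) had 4050 TPM, those of 4 yr 4264 TPM, those of 10 yr 5563 TPM and the oldest (20 yr) 4328 TPM. No difference over the 4 ages was detected (F = 0.239, adjusted p = 0.984, limma on the 8 animal-group means), and no gene of the 6106 passed in this test, while 373 had an unadjusted p under 0.05. Libraries at 10 and 20 yr exceeded those at 1 and 4 yr by 0.24 ± 0.42 (SE) on the log2 scale, or 1.18-fold (adjusted p = 0.901, limma). On the SNCB values alone an exact permutation of the 8 animal groups gave p = 0.143, where 0.0286 is the smallest possible. The share at the main position was 81.3%, 82.9%, 82.4% and 75.3% at 1, 4, 10 and 20 yr, with no difference detected (adjusted p = 0.686, exact permutation test).

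**Figure D4:**
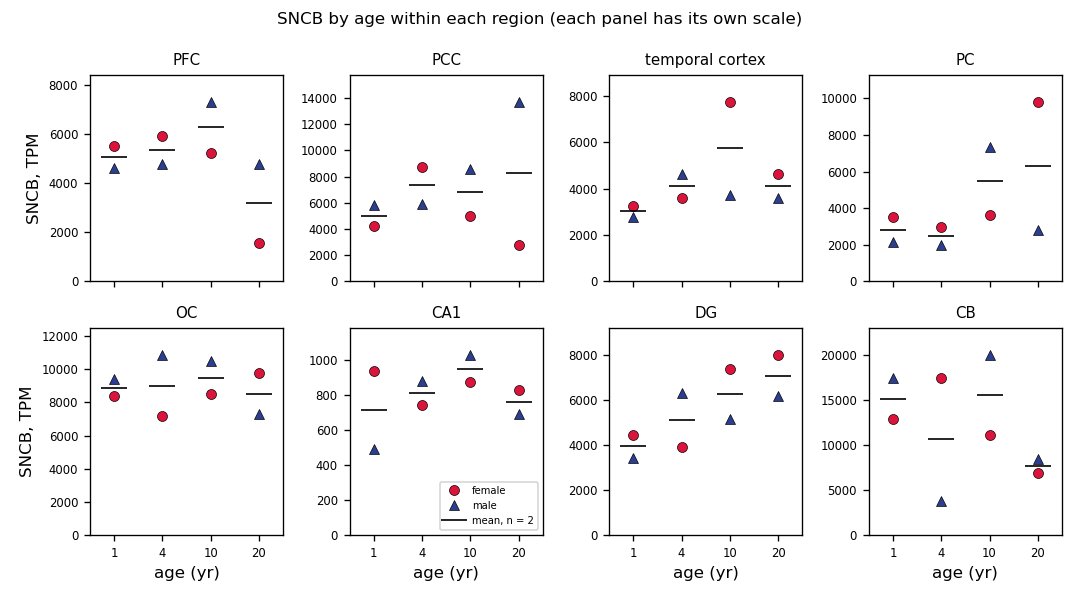
SNCB in TPM at 1, 4, 10 and 20 yr in each region, with the female and male library as points and their mean as a bar, each panel on its own axis from 0. The 4 younger and 4 older libraries overlap in every region, and the female and male library of PCC at 20 yr are 4.96-fold apart.

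Within regions the contrast of older with younger libraries ran from -0.33 in PFC to 1.01 in PC on the log2 scale, and SNCB passed in none. Of all genes tested within a region, 3 passed, all lower with age in PCC (0.0819% of 3664), and 0 in the other 7 regions. PC had the largest value, with 2649 ± 723 TPM at 1 and 4 yr and 5897 ± 3270 TPM at 10 and 20 yr (SD, n = 4, adjusted p = 0.768, limma). DG came next, with 4535 ± 1269 and 6679 ± 1266 TPM (0.58, adjusted p = 0.864, limma). In DG the younger libraries ranged from 3421 to 6329 TPM and the older from 5145 to 7993 TPM. OC was the flattest, at 8946 ± 1554 and 9008 ± 1402 TPM. CB had 12870 ± 6416 and 11565 ± 5832 TPM. PCC had means of 6174 ± 1882 and 7512 ± 4777 TPM, and the wide older range, 2766 to 13713 TPM, contained all the younger values. No difference of the age contrast between regions was detected (interaction F = 0.451, adjusted p = 0.995, limma). The SEs of these contrasts, with 4 libraries a side, were 0.83 to 1.11 on the log2 scale, about the size of the PC contrast and larger than the other 7. They are moderated by limma towards the spread of all genes in the fit, so they are not the spread of SNCB alone. In OC the SE was 0.91, while log2 SNCB had an SD of 0.224 over the 8 libraries. With quantile normalization that SE was 0.20. On the SNCB values alone the smallest p was 0.0857, in DG (adjusted p = 0.456 over the 8 regions, exact permutation test).

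No difference between females and males was detected in SNCB, with a log2 difference of 0.00 ± 0.42 (SE, adjusted p = 0.999, limma) and p = 0.971 by an exact permutation test of the animal groups. The spread between the sexes was nevertheless wide library by library. Over the 32 pairs of a female and a male library of the same region and age, the median absolute difference was 0.48 on the log2 scale, or 1.4-fold. It exceeded 1 in 6 of the 32 pairs. The pairs ran from -2.31 (PCC at 20 yr) to 2.20 (CB at 4 yr). OC, CA1 and DG had no pair beyond 1.

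SNCG (chromosome 9, 87 positions) was listed in all 64 libraries but ranged from 1.23 to 13527 TPM with a median of 544. Its leading position lay 15 nt inside the annotated start, unlike that of SNCB, and this exact base was listed in 10 libraries with 38.1% of SNCG TPM. SNCG was below SNCB in 55 libraries and above it in 9. In some of the 9 the margin was small, as in PCC of 1-yr-old females (4205 against 4192 TPM), and in others wide, as in the PFC and PCC libraries of 20-yr-old females, with 10402 and 9779 TPM. It was not called over the regions (F = 2.44, adjusted p = 0.0873, limma). Its correlation with SNCB over the 64 libraries was 0.10.

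**Figure D5:**
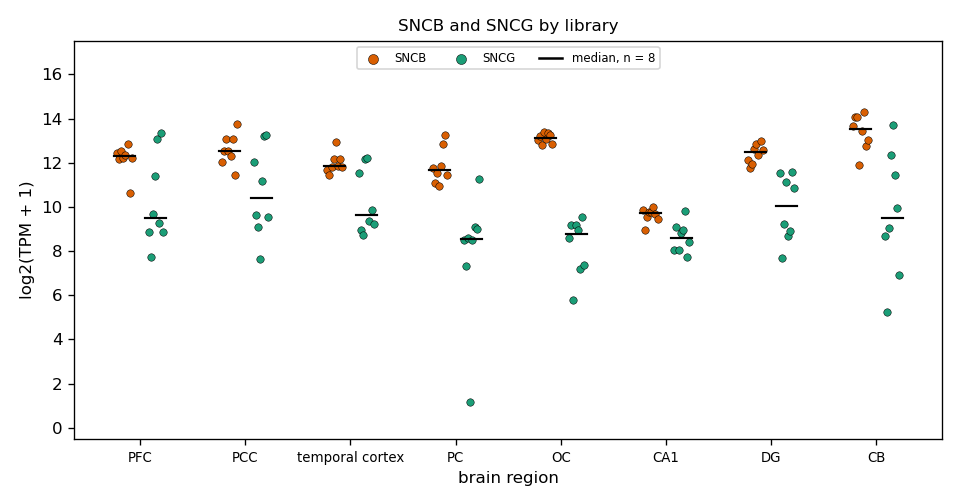
log2(TPM + 1) of SNCB and SNCG in the 8 libraries of each region, with lines at medians. SNCB lies between 492 and 19925 TPM throughout and SNCG scatters from 1.23 to 13527 TPM.

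The genes whose log2(TPM + 1) was most like that of SNCB over the 64 libraries were found among 1846 genes listed in at least 32 libraries, with Pearson r as the measure. The points share their libraries and regions, so r is a description. RBM42 (0.71) and SYP (0.71), the gene of the synaptic vesicle protein synaptophysin, led, before GAPDH (0.64), a glycolytic enzyme gene, and HMOX2 (0.62), the constitutive heme oxygenase gene. TAOK2, a protein kinase gene (0.53), BAALC (0.51), TCEAL6 (0.46) and ARHGEF17 (0.44), followed. The median r of the 1846 genes was -0.14.

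SYP had 888 ± 295 TPM in CA1, 5226 ± 2211 in DG and 7270 ± 3751 in CB (SD, n = 8). The 8 genes were picked for following SNCB, so their differences between regions are a description. Between CA1 and DG the log2 difference was -2.53 for SYP, -2.03 for RBM42 and -4.01 for HMOX2, which had 103 ± 54.4 TPM in CA1. With the number of positions as a further term it was -3.23 for SYP, -1.67 for RBM42 and -3.48 for HMOX2.

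With region and animal-group means removed, the likeness was weaker. HDAC5, a histone deacetylase gene, came first (0.48), then ACTG1 (0.46), a cytoplasmic actin gene, SNX32 (0.45), SYP (0.42), RTRAF (0.40), RPL4 (0.38), RPS14 (0.36) and RBM42 (0.36). SYP and RBM42 were the 2 genes in both sets of 8. HDAC5 had an r of 0.12 before the means were removed, and ACTG1 of -0.02.

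SNCB acts at the synaptic vesicle, and 31 genes of vesicles and release were set beside it. Of these 24 were listed and 19 could be tested, and 7 of the 19 differed over the regions, against 26.0% of all genes tested. SYP was the only one called in CB, and it was higher by 1.31 (adjusted p = 0.0248, limma), a call lost under 7 of 18 alternatives, 5 of which left out an animal group. The share of all genes called higher in CB was 0.884%. Between CA1 and DG, 4 of the 19 were higher in CA1, where 18.5% of all genes were, and 1, SYP, was lower, as were 0.852% of all genes. The median of the 19 was 2.01 on the log2 scale, against 1.37 for all genes. SYT1, the calcium sensor of release, had 71.1 ± 34.2 TPM in CA1 and 7.99 ± 21.2 in DG (adjusted p = 0.00337, limma), a difference of 5.00 that was 2.66 with the number of positions as a term (adjusted p = 0.361, limma). CPLX1 (complexin) was higher in CA1 than in DG by 3.77 (adjusted p = 0.0357, limma) and PCLO (piccolo) by 2.91 (adjusted p = 0.0329, limma). Each of these 2 calls was lost under 8 of 18 alternatives. With the number of positions as a term CPLX1 was at 0.95 (adjusted p = 0.819, limma) and PCLO at 1.85 (adjusted p = 0.48, limma). SYP, lower in CA1 by -2.53 (adjusted p = 0.000106, limma), stayed past the threshold under all 18.

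Of 17 proteins linked to synucleins as binding partners, kinases or Parkinson disease genes, 14 were listed and 7 tested. Of the 7, 1 differed over the regions, against 26.0% of all genes. This was UCHL1, a ubiquitin hydrolase gene (F = 3.3, adjusted p = 0.0274, limma), and the call was lost under 6 of 18 alternatives. It had 347 ± 78.9 TPM in CA1 and 85.2 ± 110 TPM in CB. HSPA8, the chaperone gene, had 155 ± 90.3 TPM in CA1 and 146 ± 153 TPM in CB, and was not called over the regions (adjusted p = 0.162, limma). CSNK2A1, a casein kinase gene, and MAPT, the tau gene, were listed in only 8 and 18 libraries. MAPT was higher in the hippocampus than in the neocortex by 1.60 on the log2 scale (adjusted p = 0.0296, limma), a call lost under 8 of 18 alternatives, with 0.80 when the number of positions was a term (adjusted p = 0.53, limma). None of the 7 passed between CA1 and DG, where 19.4% of all genes did, and their median was 1.38, against 1.37 for all genes.

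Neuronal identity genes were also set beside SNCB. Of 8 neuron markers, 3 differed over the regions, against 26.0% of all genes. These were THY1, a surface glycoprotein gene, ENO2, the neuronal enolase gene, and MAP2, of the dendritic cytoskeleton, whose calls were lost under 3, 5 and 14 of 18 alternatives. THY1 was lower in CB by -3.77 (adjusted p = 0.0024, limma), the opposite direction to SNCB. This call was lost without the 4-yr-old females or without the 10-yr-old males. It was the only one of the 8 called in CB, where 2.23% of all genes were. ENO2, not called, was higher there by 2.66 (adjusted p = 0.204, limma). The median of the 8 was -0.48, against -0.43 for all genes. Between CA1 and DG 1 of the 8 was called, higher in CA1, as were 18.5% of all genes. Their median there was 2.34, against 1.37 for all genes. All 5 tested markers of glutamatergic forebrain neurons differed over the regions, against the same 26.0%, led by NRGN, the neurogranin gene, which was at 0 in every CB library and had 208 ± 141 TPM in CA1. NEUROD6, a transcription factor gene of these neurons, had 280 ± 161 TPM in CA1 and 55.9 ± 87.2 TPM in DG, where 3 of 8 libraries listed it. The log2 difference was 5.24 (adjusted p = 0.00107, limma), and 3.31 with the number of positions as a term (adjusted p = 0.197, limma). NRGN and NEUROD6 were listed in 8 of 8 CA1 libraries, those of the region with the lowest SNCB and the most listed positions on average.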

How the data were processed

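CAGE-seq values of 64 libraries were analysed. The authors trimmed reads, aligned them with TopHat2 to Ensembl MMUL 1.0 and kept unique hits. They took the first base of the first read as the start. Starts of at least 0.5 TPM that lay less than 20 bp apart were joined, sample by sample. They deposited RPM values, called TPM here, for each cluster as 1 position assigned to a gene. No column was without a sample. The table holds 160389 positions of 13269 genes, 10069 with a symbol. The authors' values are not divided by gene length. Tag sizes were read from low values (under 6 TPM), of which at least 99.9% were whole multiples within 0.1 tag; no count test was run.

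Position values were summed by gene. Genes that reached 1 TPM in 8 or more libraries, 6106 in number, were fitted on log2(TPM + 1) with limma 3.58.1 in R 4.3.3, and Benjamini-Hochberg adjustment ran over all of them. Regions were compared with the animal group as a term (the replicate block), because all regions were collected from each specimen. Libraries of 1 animal group correlated by 0.01 on average in their deviations from region means. Ages and sexes were compared on the 8 animal-group means, and within a region on its 8 libraries, without genes of constant value. Pairs of regions, shares and SNCB values alone had exact or permutation tests. The fits were tested on simulated data. Files were read with the R package data.table (version 1.17.8) and pandas 2.3.3. Permutations ran in SciPy 1.17.1 with NumPy 2.4.6 under Python 3.11.15, and plots came from Matplotlib 3.10.9.

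The gene, the lists and the tests were chosen with earlier results of these data known. Named genes are SNCB, SNCG, up to 4 members of each list with the smallest p over the regions, the 8 genes most like SNCB on each of both scales, and overlapping or neighbouring genes. PROX1 was named after its values were seen, and 1 gene of the rule is not reported here. Alternatives were quantile normalization, a pseudocount of 0.25 TPM, the absence of a filter, rescaling to the sum of listed TPM, the highest position of a gene, positions of at least 2 TPM, no replicate block, the animal group as a random effect, neocortical means, and leaving out each animal group. Chosen after seeing the data were the number of positions as a term, leaving out the PFC and PCC libraries of 20-yr-old females, and permutation of SNCB values alone.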

Additional observations from a re-analysis of the deposited data

Results flagged for a closer look

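Within each region the 8 libraries were checked for a lowest or highest value far from the others (by Dixon's test at its 95% limit), for SNCB TPM, the main position, its share, the upstream stretch and the end stretch. Of 40 groups 7 values stood out. The limit stands for about 1 in 20 groups where values are normal and groups independent. Here the measures share values, and some libraries were flagged in more than 1 of them. The 7 can therefore not be set against that rate. The PFC library of 20-yr-old females was low in SNCB, with 1570 TPM against 4626 to 7305 TPM in the other 7, and in the main position, with 834 TPM against 3506 to 5852 TPM. It was also the shallowest library, with about 1509000 tags in all. The PCC library of 20-yr-old females had a main-position share of 3.89% against 75% to 98.7%, and 2659 TPM in the upstream stretch against 40 to 1037 TPM. It listed 912 positions, where the PCC libraries listed 744 to 3410. The temporal cortex library of 10-yr-old females was high in SNCB, with 7748 TPM against 2784 to 4618 TPM, and in the upstream stretch, with 2496 TPM against 187 to 605 TPM. It listed 985 positions, against 3862 to 7809 in the other 7 of its region. The part of these low numbers of positions in the flagged values was not tested. The CA1 library of 1-yr-old males had 132 TPM at the main position against 414 to 664 TPM.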

How the results depend on the processing

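The differences of SNCB over the regions, between hippocampus and neocortex and between CA1 and DG kept their direction and stayed past the threshold under all 18 alternatives, with adjusted p of at most 6.01e-05, 0.0123 and 0.00138 (limma). The CB difference did so under 17 of 18. With a pseudocount of 0.25 TPM it was 1.44 with an adjusted p of 0.0548. Without the replicate block of animal groups the F over regions was 15.2 and the CB, hippocampus and CA1 differences were 1.44, -1.33 and -2.77, and with the group as a random effect F was 15.3; the block changed no call. Leaving out each animal group in turn gave 11.5 to 14.1 for F, 1.29 to 1.66 for CB, -1.40 to -1.27 for the hippocampus and -2.84 to -2.70 for CA1 against DG. Pairs of regions past the threshold numbered 15, also on rescaling and without the PFC and PCC libraries of 20-yr-old females. Counts of genes called moved more: 395 to 1859 over the regions (1590 in the report), 91 to 200 in CB (136), 111 to 755 in the hippocampus (500) and 166 to 1838 between CA1 and DG (1182). The lowest counts came with the number of positions as a term, except in CB, where they came without the 10-yr-old males. Quantile normalization raised the share of lower calls between CA1 and DG from 4.4% to 26.1%, in the hippocampus from 2.6% to 14.2%. In CB it moved the share from 60.3% to 46.5%, with 93 lower calls in place of 82 and 107 higher calls in place of 54.

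No age or sex contrast of SNCB passed under any alternative. Leaving out each animal group gave 0.0433 to 0.258 for the age F, 0.15 to 0.33 for the older against the younger, -0.07 to 0.09 for the sexes and 0.129 to 0.625 for the interaction F. The sex difference changed sign to -0.04 (quantile normalization), -0.01 (rescaled, and highest position) and -0.09 (neocortical means). Within regions, leaving out each library gave -0.58 to 0.15 in PFC, -0.20 to 0.46 in PCC, 0.19 to 0.64 in temporal cortex, 0.71 to 1.32 in PC, -0.08 to 0.16 in OC, -0.01 to 0.33 in CA1, 0.46 to 0.81 in DG and -0.64 to 0.24 in CB. The contrast changed sign to 0.15 in PFC without the libraries of 20-yr-old females, to -0.07 in PCC and -0.00 in CA1 with quantile normalization, and to -0.03 in OC with the highest position. The cause was not tested.

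For the main-position share, leaving out each animal group gave a region F of 3.04 to 9.57, weaker without the males of 1 yr (adjusted p = 0.0505, permutation) or 4 yr (adjusted p = 0.0506, permutation). It gave 2.01 to 6.38 percentage points for CB and -15.6 to -9.8 for the hippocampus, which passed without the females of 20 yr (adjusted p = 0.0469, exact sign-flip test). It gave -4.77 to 0.306 points for age, 0.0904 to 5.63 for the age F and -4.56 to 1.06 points for sex. With the sum of listed TPM in place of the number of positions, the correlation with SNCB was 0.457. Of 1616 values of the 48 other named genes, 1354 kept their side of the threshold, 256 fell under it, 6 passed it and 0 changed direction. The 0 says little, since many of the values are region F statistics, which have no direction. The contrasts between regions entered only where the main fit had called them.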

Other observations

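The upstream stretch of SNCB was looked at by age after its values were seen. Its mean over the 8 regions was 341 to 392 TPM in the 4 animal groups of 1 and 4 yr and 584 to 725 TPM in the 4 of 10 and 20 yr, so the groups did not overlap. The means were 361 ± 24.1 and 677 ± 65 TPM (SD, n = 4), a ratio of 1.87 (p = 0.0286, exact permutation test, the smallest possible). Adjusted over the 3 measures compared, with the main position (4951 ± 524 and 5363 ± 1157 TPM, p = 0.657) and the end stretch (243 ± 85.3 and 321 ± 107 TPM, p = 0.314), it was 0.0858 by the exact permutation test. The older mean was higher in 5 of 8 regions. In CB it was 1476 ± 314 TPM against 547 ± 291 TPM, and in PCC 953 ± 1227 TPM against 133 ± 134 TPM. In CA1 it was lower, 214 ± 96.9 TPM against 307 ± 38.8 TPM. Without PCC and the temporal cortex, which hold the libraries with 2659 and 2496 TPM, the ratio was 1.46 and the groups overlapped (p = 0.0571, and 0.4 on the log2 scale, exact permutation tests). These libraries listed few positions, 912 and 985. As a share of SNCB TPM the stretch had 11.5% ± 2.23 and 14% ± 5.86 (p = 0.514, exact permutation test). As an exact base, the leading position of the stretch was listed in 24 of 32 younger and 20 of 32 older libraries.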
